A study of Rattus norvegicus with 12 samples.

Results

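The circular RNAs (circRNAs) described here came from 5 host genes of fatty acid oxidation in rat liver: Ppara, Crot, Ehhadh, Hadhb and Acaa2. They were the table entries that carried one of these symbols, together with entries under an Ensembl identifier that shared a transcript or a back-splice junction with them. The 5 genes were 5 of 6021 hosts in the table and held 35 of its 21876 entries, 34 of its 21068 junctions and 981 back-splice reads. They were chosen by their role and with their values in the comparisons of the 3 groups known, so that those values are given as a description, without a test.

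The libraries were made from liver RNA of wild type Wistar rats, and all groups shared the same induction of diabetes. The rats ate a diet with 60% of its calories from fat for 4 weeks, were fasted for 16 h and received 35 mg/kg of streptozotocin, which destroys insulin-producing cells. Animals above 16.7 mmol/L fasting blood glucose 3 days later entered the study, so that no group was free of diabetes induction. The 5 sham libraries came from sham-operated diabetic rats. The 5 SG libraries came from diabetic rats 3 months after sleeve gastrectomy, in which the stomach is reduced to a narrow tube. The 2 relapse libraries came from rats whose diabetes returned after that operation, and when these and the sham rats were sampled is not given in the sources used here.

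Fatty acids reach the liver's mitochondria and peroxisomes as acyl-CoA or acylcarnitine and are shortened there by beta-oxidation, a cycle of oxidation, hydration, a further oxidation and thiolysis. Ppara encodes PPARα, the nuclear receptor that binds fatty acids and, with its partner RXR, switches on many genes of both organelles during fasting. Crot encodes carnitine octanoyltransferase, which hands medium-chain acyl groups from peroxisomes to carnitine. Ehhadh encodes the peroxisomal L-bifunctional enzyme, which hydrates and oxidises the enoyl-CoA intermediate. Hadhb encodes the beta subunit of the mitochondrial trifunctional protein, and Acaa2 a mitochondrial thiolase of the last step. A circRNA forms when a downstream splice donor is joined to an upstream acceptor, and a read across that junction is what was counted. The count therefore gives the circles of a gene and not its mRNA or protein, and at a single junction it does not grow with gene length. Host levels add up all junctions of a gene, and their relation to gene length was not tested.

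The libraries held 18176 to 37229 back-splice reads, of which relapse 2 had the most and relapse 1 had 18473, and levels are given in reads-per-million (RPM) of the library's back-splice reads. A count of 0 allowed up to 165 RPM in the shallowest library and 80.6 RPM in the deepest, counting error alone. Of 12 hepatocyte marker genes 10 had reads, and no read was listed under the symbols Trf or Ttr. Markers were looked up by symbol only, so that a 0 under Trf does not show that transferrin gave no circles. The summed level of the hepatocyte markers was 25713 to 37247 RPM in sham, 21226 to 36530 RPM after sleeve gastrectomy and 18514 to 20790 RPM in relapse, so that both relapse libraries lay below every other library. For relapse against sham, 6 of the markers passed the filter. Their log2 fold changes were 0.26 (C3, SE 0.34), -0.15 (Alb, SE 0.37), -0.36 (Cyp2e1, SE 0.72), -0.79 (Cps1, SE 0.40), -0.80 (Cyp2c7, SE 0.23) and -1.15 (Apob, SE 1.22). Those of C3, Alb, Cyp2e1 and Apob were smaller than their SE. Markers of cholangiocytes, pancreas and gut, and adipocytes were at 0 in all libraries. Kupffer cell markers had reads for 2 of 8 genes and at most 786 RPM in any library. In whole tissue, fewer cells of a type and less RNA per cell cannot be told apart, and the part of the lower hepatocyte marker sum in any relapse value below was not tested.

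Hadhb and Ppara were among the most abundant circle hosts of these livers, and the other 3 genes were lower. Over the 12 libraries the mean was 1437 ± 588 RPM (SD, n = 12) for Hadhb, rank 102 of 6021 hosts, and 1088 ± 500 RPM (SD, n = 12) for Ppara, rank 147. Crot had 521 ± 280.1 RPM (SD, n = 12), Ehhadh 352 ± 220.03 RPM (SD, n = 12) and Acaa2 161 ± 135 RPM (SD, n = 12). In this order the step from Ppara to Crot, 567 RPM, was larger than the SD of either gene. The steps from Hadhb to Ppara (349 RPM), Crot to Ehhadh (169 RPM) and Ehhadh to Acaa2 (192 RPM) were smaller than at least 1 of the neighbours' SDs.

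**Figure D1:**
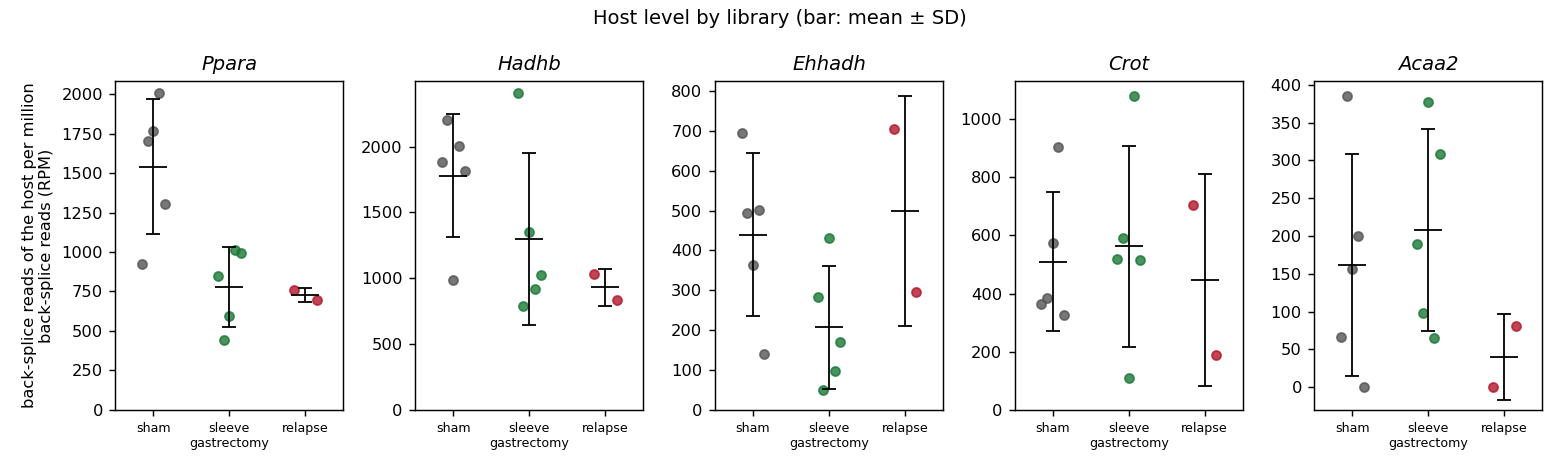
Summed circle level of each host gene in RPM (vertical axis, from its own scale in each panel), by group. Points are libraries, and the bars give mean ± SD for 5 sham, 5 sleeve gastrectomy and 2 relapse libraries. Ppara sits at 927 to 2006 RPM in sham and at 442 to 1016 RPM after sleeve gastrectomy, and the sham and SG points of Crot and Acaa2 are intermixed.

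The mean level of Ppara circles was lower after sleeve gastrectomy than in sham, and relapse was as low. Sham 1 to 5 held 28, 31, 34, 40 and 28 Ppara reads, or 927, 1706, 1769.7, 2006 and 1302 RPM. SG 1 to 5 held 18, 9, 11, 31 and 29 reads, or 851, 442, 593, 1016 and 993 RPM. All 5 SG libraries lay below the sham mean, but SG 4 and SG 5 lay above sham 1, so that the groups overlapped. Relapse 1 and 2 held 14 and 26 reads, or 758 and 698 RPM, inside the SG range and below every sham library. The means were 1542 ± 427 RPM (SD, n = 5) in sham, 779 ± 252 RPM (SD, n = 5) in SG and 728 ± 42.1 RPM (SD, n = 2) in relapse. The log2 fold change was -0.94 (SE 0.32) for SG against sham, -0.17 (SE 0.44) for relapse against SG and -1.11 (SE 0.44) for relapse against sham.

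Nearly all Ppara reads came from 3 nested circles with a common start. All 3 began at the acceptor of exon 4, chr7:126667195 on the plus strand of Rnor_6.0, and ended at the donor of the fifth, sixth or seventh exon, within the gene body. The smallest, exons 4 to 5 at chr7:126667195-126669197, is listed under the names circRNA1100 and circRNA9346 and held 149 reads, 49.8% of the host's. Next came exons 4 to 6, circRNA1101 at chr7:126667195-126671241, with 99 reads. The circle of exons 4 to 7, circRNA4145 at chr7:126667195-126678839, held 37. Of the exonic Ppara reads 97.9% used this 1 acceptor. Exon 5 is 138 nt and exon 6, by which circRNA1101 exceeds the smallest circle, is 202 nt long, and the genomic spans of the 3 circles run from 2003 to 11645 bases.

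Each of the 3 Ppara circles had a lower mean in SG than in sham. In the smallest, sham 1 to 5 had 14, 19, 21, 10 and 17 reads, SG 1 to 5 had 10, 2, 6, 23 and 11, and relapse 1 and 2 had 7 and 9. Its level was 779 ± 294 RPM (SD, n = 5) in sham, 405 ± 239 RPM (SD, n = 5) in SG and 310.3 ± 97.0 RPM (SD, n = 2) in relapse. Both relapse libraries lay below all sham libraries, the lowest of which had 463 RPM, whereas SG 4 with 754 RPM lay inside the sham range. The circle of exons 4 to 6 had 514 ± 252 RPM in sham (54 reads), 279 ± 101 RPM in SG (34 reads) and 243 ± 192 RPM in relapse (11 reads). The longest, exons 4 to 7, had 232 ± 226 RPM in sham (24 reads), 61.4 ± 44.7 RPM in SG (7 reads) and 80.6 ± 114 RPM in relapse (6 reads). Sham 4 alone held 12 of those 24 sham reads, and SG 4 and relapse 1 held none. The smallest circle's share of the 3 was 52.5 ± 16.0% in sham, 50.8 ± 20.8% in SG and 48.7 ± 1.9% in relapse, so that the group means of its share differed by less than the spread between libraries.

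The other 6 Ppara junctions held 14 reads. One, ciRNA595, is listed as an intronic circle at chr7:126667194-126669201, with 2 reads in SG 5 and 5 in relapse 2. Its edges lie 1 and 4 bases from those of the circle of exons 4 to 5, whose 147 reads under its first name and 2 under its second were counted as 1 junction.

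**Figure D2:**
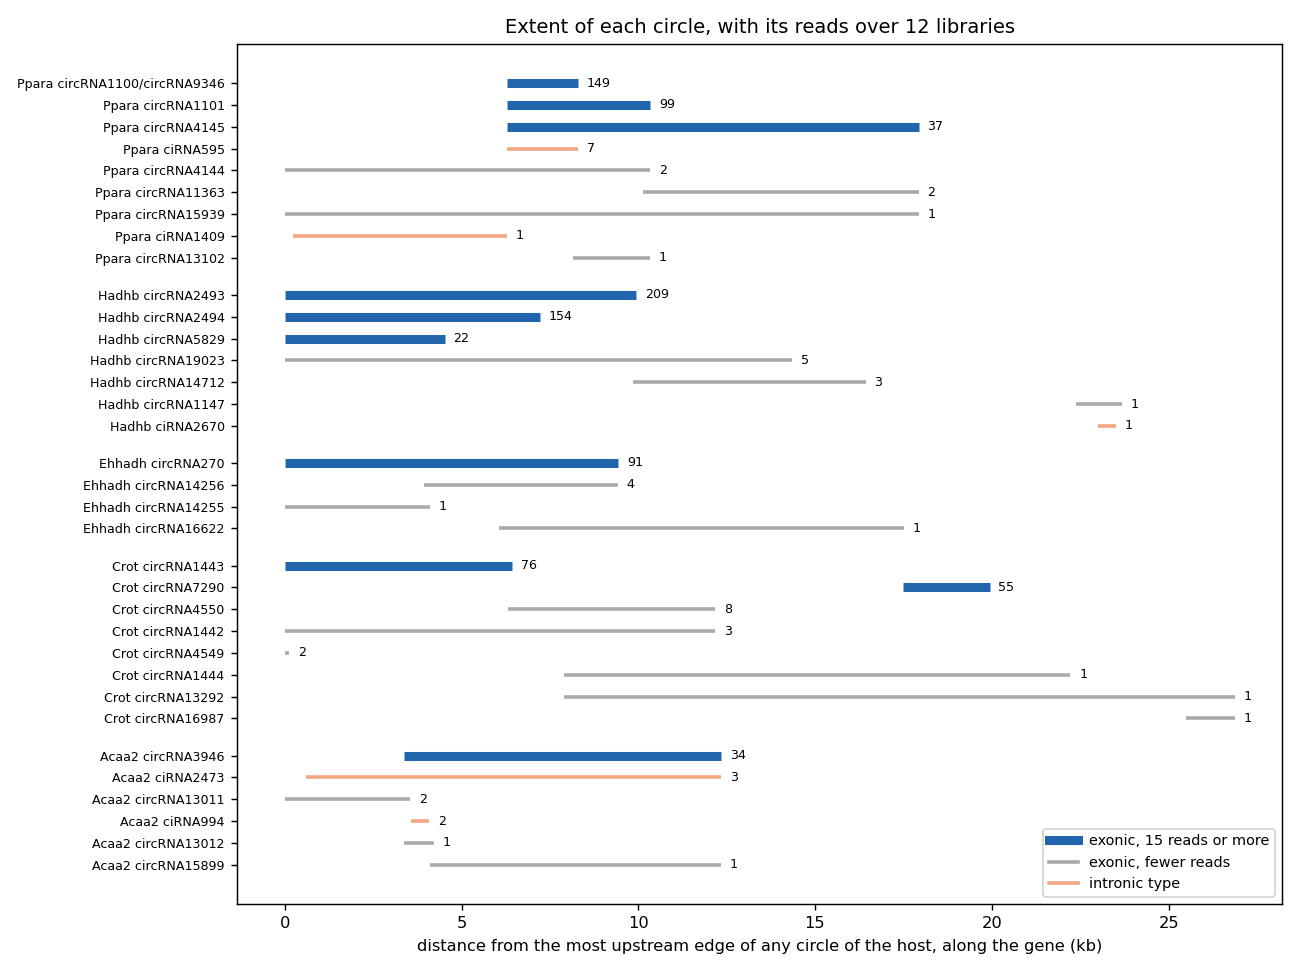
Extent of all 34 circles of the 5 hosts along their genes (horizontal axis, distance in kb from the most upstream circle edge of the host), with the number of reads over 12 libraries beside each bar. Thick blue bars are exonic circles of 15 reads or more, grey bars exonic circles of fewer reads and orange bars circles listed as intronic. The 3 thick bars of Ppara and the 3 of Hadhb each share their upstream edge, and the 2 of Crot lie apart.

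Crot circles spread more between the libraries of a group than between the group means. Sham 1 to 5 held 11, 7, 11, 18 and 7 reads, or 364, 385, 573, 903 and 325 RPM. SG 1 to 5 held 11, 12, 2, 33 and 15 reads, or 519.8, 589.6, 108, 1081 and 514 RPM. Relapse 1 and 2 held 13 and 7 reads, or 704 and 188 RPM. SG 3 was the lowest and SG 4 the highest of the 12 libraries, so that SG enclosed both other groups. The means were 509.96 ± 239 RPM in sham, 562 ± 347 RPM in SG and 446 ± 365 RPM in relapse. The log2 fold changes were 0.20 (SE 0.46) for SG against sham, -0.54 (SE 0.63) for relapse against SG and -0.34 (SE 0.63) for relapse against sham. None of the 3 held its sign when single libraries were left out: the first was -0.22 without SG 4, and without relapse 2 the other two were 0.16 and 0.37. Without sham 4, relapse against sham was 0.01.

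Crot made a pair of main circles from separate stretches of the gene. Exons 2 and 3 formed circRNA1443 at chr4:22084946-22091386 on the plus strand, which joins exons of 135 and 124 nt into a loop of 259 nt. It held 7, 0, 2, 10 and 3 reads in sham 1 to 5, 7, 1, 0, 26 and 9 in SG 1 to 5, and 11 and 0 in relapse 1 and 2. SG 4 alone held 26 of its 76 reads, and sham 2, SG 3 and relapse 2 held none. Its means were 195 ± 190.1 RPM in sham, 308 ± 338 RPM in SG and 298 ± 421 RPM in relapse, each with an SD close to or above the mean.

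The circle of exons 7 to 9, circRNA7290 at chr4:22102428-22104879, was in every sham and SG library and in neither relapse library. It held 4, 4, 8, 6 and 4 reads in sham, 4, 11, 2, 7 and 5 in SG, and 0 and 0 in relapse. The level was 251 ± 111 RPM (SD, n = 5) in sham and 248 ± 169 RPM (SD, n = 5) in SG, a difference within the spread of either group. Against 3 reads over the relapse group, 53.9 RPM, the pooled relapse level was at least 4.43-fold lower than in sham and at least 4.5-fold lower than in SG, in counting terms and without the spread between libraries. Relapse 2, the deepest library, sets that limit: without it the bounds are 1.47-fold and 1.49-fold. The other 6 Crot junctions held 16 reads, among them circRNA4550 of exons 3 to 6 with 3 reads in sham 2 and 5 in relapse 2.

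Ehhadh circles had their lowest mean after sleeve gastrectomy, and the relapse mean lay within the sham range. Sham 1 to 5 held 21, 9, 7, 10 and 3 reads, or 695, 495, 364, 501 and 139 RPM. SG 1 to 5 held 6, 1, 8, 3 and 5 reads, or 284, 49.1, 431, 98.3 and 171 RPM. Relapse 1 and 2 held 13 and 11 reads, or 704 and 295 RPM. All 5 SG libraries lay below the sham mean, and 4 of them below sham 3, but sham 5 lay lower than 3 of the SG libraries. Relapse 1 was the highest of all 12 libraries, and relapse 2 lay between SG 1 and SG 3. The means were 439 ± 205 RPM (SD, n = 5) in sham, 207 ± 154 RPM (SD, n = 5) in SG and 499.6 ± 289 RPM (SD, n = 2) in relapse. The log2 fold change was -1.16 (SE 0.59) for SG against sham, 1.20 (SE 0.73) for relapse against SG and 0.05 (SE 0.72) for relapse against sham. Relapse against SG was 0.63 without relapse 1 and 1.69 without relapse 2.

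A single circle held nearly all Ehhadh reads. The circle of exons 2 to 5, circRNA270 at chr11:82955793-82965219 on the plus strand, held 91 reads, 93.8% of the host's, and every Ehhadh read in SG and relapse. In sham 1 to 5 it had 17, 9, 6, 10 and 2 reads, and its level was 393 ± 192 RPM (SD, n = 5). Its log2 fold change was -0.96 (SE 0.62) for SG against sham and 1.24 (SE 0.76) for relapse against SG. The other 3 Ehhadh junctions held 6 reads, all in sham, of which 4 belonged to circRNA14256, exons 3 to 5.

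Hadhb circles had lower means after sleeve gastrectomy and in relapse than in sham, with wide overlap. Sham 1 to 5 held 57, 40, 19, 40 and 39 reads, or 1887, 2201, 989, 2006 and 1813 RPM. SG 1 to 5 held 51, 16, 25, 28 and 30 reads, or 2410.1, 786, 1348, 917 and 1027 RPM. Relapse 1 and 2 held 19 and 31 reads, or 1029 and 833 RPM. SG 1 was the highest and SG 2 the lowest of the 12 libraries, and sham 3 lay below 3 SG libraries and 1 relapse library. The means were 1779 ± 465 RPM (SD, n = 5) in sham, 1298 ± 656 RPM (SD, n = 5) in SG and 931 ± 138 RPM (SD, n = 2) in relapse. The log2 fold change was -0.49 (SE 0.30) for SG against sham, -0.51 (SE 0.41) for relapse against SG and -1.0 (SE 0.41) for relapse against sham. Without SG 1, SG against sham was -0.81 and relapse against SG was -0.12.

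Hadhb, too, made nested circles with 1 common upstream edge. This edge lies at chr6:27582987 on the minus strand and took 99.0% of the exonic Hadhb reads. The circle of 5 exons, circRNA2493 at chr6:27573047-27582987, held 209 reads. The circle of 4 exons, circRNA2494 at chr6:27575764-27582987, lacks the last exon of the former, which is 99 nt long by the listed circle edges, and held 154 reads. A circle of 3 exons, circRNA5829 at chr6:27578465-27582987, held 22 reads and lacks a further exon of 44 nt. A circle of 6 exons, circRNA19023, adds an exon of 87 nt and had 5 reads, all in sham 5. The last exon of circRNA2493 shares its upstream edge, 27573145, with circRNA14712, listed as exons 5 to 7. By that numbering circRNA2493 would run from exon 1 to exon 5. The 4 circles at the common upstream edge are listed with 1 flanking intron each, and none lies beyond that edge. Of all exonic identifier entries, 13.74% are listed with 1 flanking intron and 86.26% with 2. Whether the common upstream edge is a splice acceptor was not tested.

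The 5-exon Hadhb circle had its lowest level in relapse. It held 29, 23, 11, 21 and 22 reads in sham 1 to 5, 35, 10, 17, 14 and 21 in SG 1 to 5, and 6 and 0 in relapse 1 and 2. Its level was 975 ± 252 RPM in sham, 848 ± 487 RPM in SG and 162 ± 230 RPM in relapse, and both relapse libraries lay below every other library. The log2 fold change was -2.68 (SE 0.77) for relapse against SG and -2.88 (SE 0.78) for relapse against sham, against -0.20 (SE 0.44) for SG against sham.

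The 4-exon circle showed another order, lowest in SG. It held 25, 11, 8, 19 and 11 reads in sham 1 to 5, 10, 2, 8, 14 and 9 in SG 1 to 5, and 12 and 25 in relapse 1 and 2. Its level was 663 ± 223 RPM in sham, 354 ± 157 RPM in SG and 661 ± 15.5 RPM in relapse. Both relapse libraries lay above every SG library and within the sham range. The log2 fold change was -0.87 (SE 0.44) for SG against sham, 0.88 (SE 0.55) for relapse against SG and 0.00 (SE 0.55) for relapse against sham.

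Of the reads of these 2 circles, the 5-exon circle took 53.7, 67.6, 57.9, 52.5 and 66.7% in sham 1 to 5 and 77.8, 83.3, 68.0, 50.0 and 70.0% in SG 1 to 5. In relapse 1 it took 33.3% of 18 reads, with an exact (Clopper-Pearson) 95% interval of 13.3 to 59.0%. In relapse 2 it took 0 of 25 reads, for which the exact upper limit is 13.7% and 3 reads would be 12%. The means were 59.7 ± 7.1% in sham, 69.8 ± 12.7% in SG and 16.6 ± 23.5% in relapse. Sham and SG overlapped, while both relapse libraries lay below the lowest of the other 10, which had 50.0%, although the interval of relapse 1 reached above that value. The 3-exon circle had 6 reads in sham 2, 6 in SG 1, 4 in SG 2, 6 in relapse 2 and none elsewhere.

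**Figure D3:**
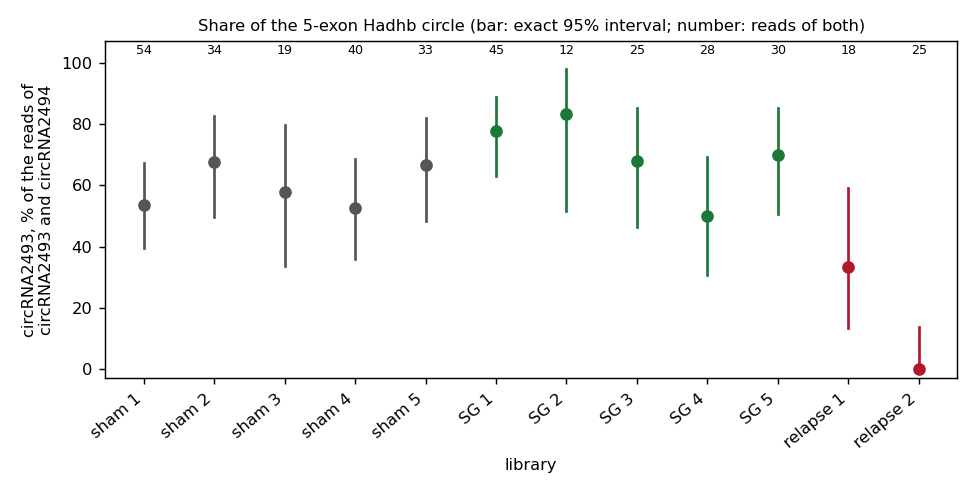
Share of the 5-exon circle circRNA2493 in the reads of circRNA2493 and circRNA2494 of Hadhb (vertical axis, %), by library. Bars are exact 95% binomial intervals, and the number above each point is the reads of both circles. The 10 sham and SG libraries lie between 50.0 and 83.3%, and relapse 1 and relapse 2 lie at 33.3 and 0.0%.

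Hadhb was listed mostly under identifier entries, which held 98.7% of its reads. In the whole table such entries rarely show a single read: 1.68% of their values above 0 were a single read, against 38.1% in symbol entries. Among entries with a mean of at least 10 reads per library, 50 of 99 identifier entries (50.5%) had a library at 0, against 33 of 264 symbol entries (12.5%). In relapse 2 this was so for 6 of the identifier entries and 2 of the symbol entries. The part of the entry type in the 0 of circRNA2493 in relapse 2 was not tested.

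The core AGGTCA letters that nuclear receptors of the PPARα and RXR type read were in 1 of 4 promoter windows, that of Hadhb. Promoter windows of 300 bases, 250 before and 50 after the gene start (RefSeq, GRCr8), were matched for 4 of the 5 hosts: Ppara, Crot, Ehhadh and Hadhb. The letters AGGTCA on either strand were in 1 of these 4, that of Hadhb, and in 5415 of all 33469 windows (16.2%). With only 4 windows, 1 match cannot be told apart from that share. The repeat of AGGTCA with 1 base between the copies was in none of the 4 and in 18 of all windows (0.054%). The stretch is shown on the gene's strand, with the reverse complement of AGGTCA in capitals, its first base 43 bases after the start:
Hadhb chr6:31907451-31907480, minus strand: cgggcgtttatcagtctggactTGACCTtc
A match of letters is not a binding site, and no binding was measured here.

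Acaa2 had the fewest reads of the 5 hosts, and its sham, SG and relapse libraries overlapped. Acaa2 reads numbered 2, 7, 3, 4 and 0 in sham 1 to 5, 4, 2, 7, 2 and 9 in SG 1 to 5, and 0 and 3 in relapse 1 and 2. The levels were 162 ± 147 RPM in sham, 208 ± 134 RPM in SG and 40.3 ± 57.0 RPM in relapse, all near the level that a count of 0 allows in 1 library, 80.6 to 165 RPM. The log2 fold change was 0.36 (SE 0.96) for SG against sham, -2.0 (SE 1.44) for relapse against SG and -1.64 (SE 1.44) for relapse against sham. The circle of exons 6 to 9, circRNA3946 at chr18:70751584-70760543 on the plus strand, held 34 reads, 79.1% of the host's. It had 2, 6, 0, 4 and 0 reads in sham, 4, 0, 7, 2 and 6 in SG, and 0 and 3 in relapse. The other 5 Acaa2 junctions held 9 reads, 5 of them in circles listed as intronic, ciRNA2473 and ciRNA994.

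**Figure D4:**
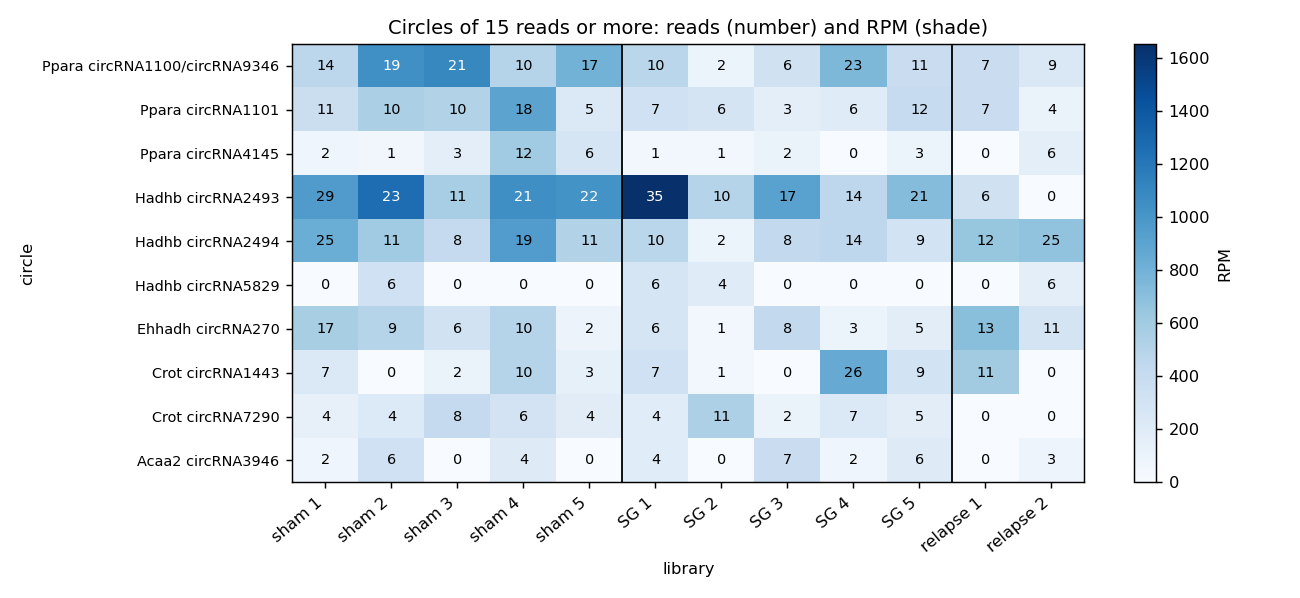
Back-splice reads (number in each cell) and level in RPM (shade) of the 10 circles with at least 15 reads, by library. Rows are circles with their host, columns the 5 sham, 5 sleeve gastrectomy (SG) and 2 relapse libraries. The Crot circle circRNA7290 is at 0 in both relapse libraries, and the Hadhb circle circRNA2493 is at 6 and 0 reads there.

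In the test over the whole table, edgeR's quasi-likelihood test with Benjamini-Hochberg adjustment at 0.05, few hosts and no junctions passed, and no host or circle described here was among them. The 3 comparisons share libraries, since each group enters 2 of them. All 5 hosts passed the filter on low counts, as 5 of 1337. Of the hosts tested, 2 passed for SG against sham (0.150%), 1 for relapse against SG (0.0748%) and 2 for relapse against sham (0.150%), and 0 of the 5 did in each comparison. At an unadjusted p under 0.05 there were 50, 58 and 79 hosts, and DESeq2 called 0, 0 and 2. Of 1519 junctions tested, 0 passed (0%) in SG against sham, 0 (0%) in relapse against SG and 0 (0%) in relapse against sham, with 59, 73 and 88 at an unadjusted p under 0.05 and none called by DESeq2. The 10 junctions with at least 15 reads were the ones that passed the filter out of 34.

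In 1 of the settings run a circle of these hosts did pass: without relapse 1, so that relapse 2 with 0 reads stood alone, the 5-exon Hadhb circle had an edgeR adjusted p of 4.6e-05 against SG and 3.58e-05 against sham. In the other settings the smallest adjusted p of any junction of the 5 hosts was 0.262 to 1 against SG and 0.131 to 0.757 against sham. Since the members were chosen with these contrasts known, neither value is a test of them.

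Groups without overlap in level were mostly found where the relapse libraries were compared, both here and in the whole table. The relapse group held 2 libraries and the sham and SG groups 5 each. A group of fewer libraries lies apart from another more often by chance alone. The higher shares for relapse therefore do not show that relapse livers differed more, and the part of group size was not tested. Among all tested hosts the groups did not overlap in RPM for 0.823% in SG against sham, 10.3% in relapse against SG and 10.1% in relapse against sham. Of the 5 hosts this held for 0, 0 and 1, and the 1 was Ppara, lower in relapse than in sham. Among all tested junctions the shares were 0.987%, 9.22% and 11.5%. Of the 10 junctions this held for 0 in SG against sham, for 3 in relapse against SG (both main Hadhb circles and circRNA7290 of Crot) and for 3 in relapse against sham (the smallest Ppara circle, the 5-exon Hadhb circle and circRNA7290).

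In 4 of the 5 hosts at least 92.1% of the exonic reads came from circles that began at 1 upstream edge, a feature that the choice of members did not use. The most used upstream edge took 97.9% of the exonic reads in Ppara, 99.0% in Hadhb, 94.8% in Ehhadh, 92.1% in Acaa2 and 55.1% in Crot. Over the 1734 hosts with at least 2 exonic junctions and 15 reads the median was 73.3%, with quartiles of 52.1 and 90.9%, so that 4 of the 5 hosts lay above the upper quartile. The most used donor took 51.2% in Ppara and 53.0% in Hadhb, where the nested circles part, 51.7% in Crot, 92.1% in Acaa2 and 97.9% in Ehhadh, against a median of 70.0% over the same hosts. In Ehhadh and Acaa2 both edges were mostly those of 1 circle, which held 91 of 97 and 34 of 38 exonic reads. By reads, the exonic circles of the 5 hosts had a median of 4 exons against 3 in the whole table, and circles of 5 or more exons took 22.8% of the reads against 16.3%. Both values rest on the 5-exon Hadhb circle, circRNA2493: without it the median was 3 and circles of 5 or more exons took 11 of 758 reads (1.5%). Circles of a single exon took 0.2% of the reads of the 5 hosts, and 0.3% without circRNA2493, against 9.6% in the whole table. As in the whole table, most junctions were rare: 19 of 34 (55.9%) were seen in 1 library only, against 60.2% of all junctions.

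No other gene of the fatty acid lists used here passed the test. These lists cover oxidation, ketogenesis and PPAR regulation, and not fatty acid synthesis. Acly, a host outside them, passed for relapse against sham (log2 fold change 2.35, SE 0.49, edgeR adjusted p = 0.0135). The lists held 94 genes, of which 69 had circle reads and 30 passed the filter, and none of the 30 passed the test in any comparison. Without the 5 hosts, 25 remained, with a median log2 fold change of 0.09 for SG against sham (0.00 over all 1337 hosts), -0.03 for relapse against SG (-0.05 over all) and -0.21 for relapse against sham (-0.08 over all). Of the 25, 15 had a positive and 10 a negative fold change for SG against sham, none at an unadjusted p under 0.05. For relapse against SG, and again for relapse against sham, 10 had a positive and 15 a negative fold change, not all of them the same genes, and none had an unadjusted p under 0.05. By list, the tested genes were 5 of 16 for carnitine shuttle and activation, 5 of 19 for mitochondrial beta-oxidation, 9 of 23 for peroxisomal oxidation, 2 of 5 for ketogenesis, 1 of 7 for omega-oxidation (Cyp4a3) and 8 of 24 for PPAR receptors and coregulators. The median log2 fold change for SG against sham lay between -0.09 in the peroxisomal list and 0.19 in the carnitine list, the 5 hosts included. For relapse against SG the list medians ran from -0.66 (Cyp4a3 alone) to 0.25 (ketogenesis), and for relapse against sham from -0.62 to 0.18 in the same lists.

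Among the 25 other genes, those with the smallest p had fold changes of both signs. Acadvl, the acyl-CoA dehydrogenase that opens mitochondrial oxidation of long chains, had 286 ± 109 RPM in sham, 534 ± 172 RPM in SG and 539.7 ± 155 RPM in relapse. Its log2 fold change was 0.86 (SE 0.49, edgeR adjusted p = 0.997) for SG against sham and 0.83 (SE 0.62, edgeR adjusted p = 0.942) for relapse against sham. Slc27a2, a very long-chain acyl-CoA synthetase and transporter, had the opposite sign, with 1175 ± 446 RPM in sham and 623 ± 596 RPM in SG and 0 reads in SG 2 (-0.87, SE 0.64, edgeR adjusted p = 0.997). For relapse against SG, Pecr, a peroxisomal enoyl-CoA reductase, had 0.64 (SE 0.52) and Ncor1, a corepressor of nuclear receptors, -1.16 (SE 0.97), both with an edgeR adjusted p of 1. Pecr against sham had 0.73 (SE 0.53, edgeR adjusted p = 0.942).

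**Figure D5:**
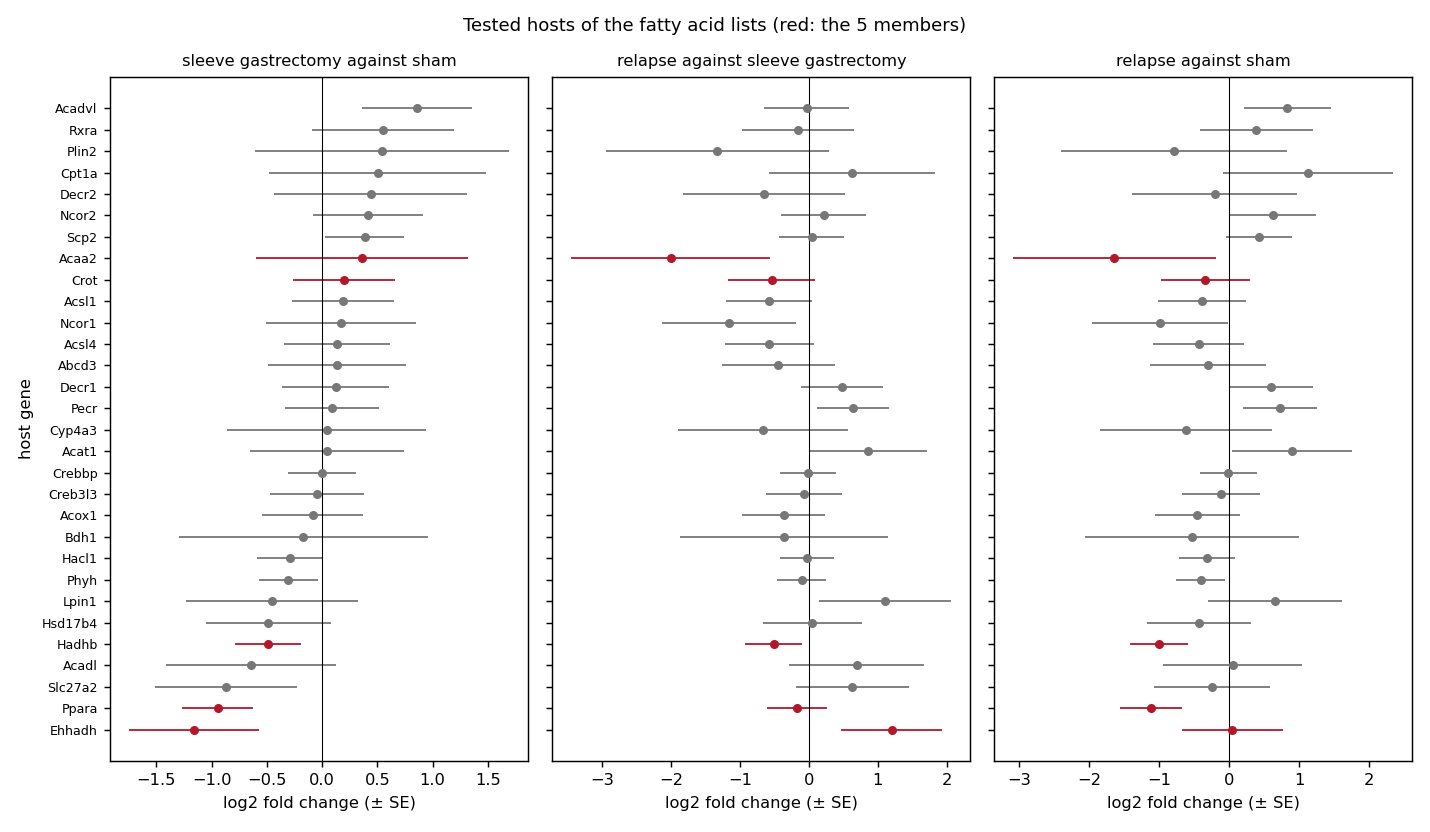
Log2 fold change with its SE (horizontal axis) of the 30 tested hosts of the fatty acid lists (vertical axis), in the 3 comparisons, with the 5 hosts described here in red. The panels share their row order, set by the fold change of sleeve gastrectomy against sham, and the 25 other hosts lie on both sides of 0 in each panel.

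Across the 12 libraries the 5 hosts did not follow one another closely. The Pearson correlation of log2(CPM + 10), where CPM are counts-per-million after TMM scaling, ran from -0.223 between Ehhadh and Crot to 0.495 between Ppara and Hadhb. These are descriptions over libraries that share depth and group, with no test. The most similar tested hosts had higher values, as the top of so many hosts must. For Ppara they were Map3k5 (0.841), ENSRNOG00000030199 (0.824) and Lmbr1 (0.80). For Hadhb they were Bcl2l13 (0.809), Xylb (0.751) and Pigk (0.724), and for Ehhadh Usp32 (0.835), Rabgap1l (0.828) and Furin (0.823). Crot was most like Arl8b (0.918), Caprin1 (0.785) and Pdxdc1 (0.718), and Acaa2 most like Sucla2 (0.889), Dcbld1 (0.885) and Akap7 (0.859).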

How the data were processed

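CircRNA libraries (ribosomal RNA depleted, linear RNA digested with RNase R, paired-end sequencing, per the labels' protocols) gave 1 deposited table of back-splice junction read counts for 12 samples: 5 sham, 5 sleeve gastrectomy, 2 relapse. The submitters' processing notes name cutadapt 1.9, FastQC, TopHat2 2.0.10 and Rnor_6.0. The tool that called the circles is not given in the sources used here. The labels do not say that libraries came from separate animals, so p-values measure only the spread between these samples.

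Only the deposited count columns were used, as raw counts, and not the normalised columns beside them. Symbol entries (18175) start 1 base earlier than identifier entries (3701); 1 was added to their starts, and entries of the same junction were summed (808 junctions had 2 entries). Identifiers were joined to symbols by transcript, junction or gene record (1449 of 1696), and counts were summed per host. Hosts and junctions were tested over the whole table with edgeR 4.0.16 in R 4.3.3 (TMM, all 3 groups in a single fit, robust quasi-likelihood, filterByExpr with minimum count 5 and minimum total 15, Benjamini-Hochberg at 0.05). RPM are reads-per-million of a library's back-splice reads, without TMM. On simulated data, hosts changed 4-fold were recovered in 59.2% of cases for SG against sham (1197 hosts), 37.4% for relapse against SG (1192) and 32.1% for relapse against sham (1187). Changed hosts that the filter removed were not counted as missed. The simulated spread followed the trend with level and not each host's own, so these shares may overstate what could be detected. Alternatives were DESeq2 1.42.0, RLE scaling, no filter, a minimum count of 10, only the groups compared, a replicate block, symbol entries alone, entries as deposited, and leaving out each library.

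The members, lists and alternatives were chosen with earlier results of these data known. All 5 hosts are named, junctions with at least 15 reads are described in full, and, of the other listed genes, the 2 with the smallest p per comparison are named, as are the 3 hosts most like each member. Intervals cover counting error only.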

Additional observations from a re-analysis of the deposited data

Results flagged for a closer look

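For the 5 hosts and 10 circles, 30 groups of 5 libraries were screened for a library far from the others, and 2 stood out. The measure was the gap to the nearest library over the range of the group, with a critical value of 0.71. For normally distributed values, chance alone marks about 1 group in 20. That rate need not hold for sparse counts, and the groups overlap, since host sums contain the circles. The Crot circle circRNA7290 had 540.5 RPM (11 reads) in SG 2, the highest of the SG libraries, with a gap of 0.719 of the range. The Hadhb circle circRNA5829 had 330.1 RPM (6 reads) in sham 2 and 0 reads in the other 4 sham libraries. The gap was then the whole range (1.0), as for any circle read in only 1 library of a group.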

How the results depend on the processing

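The libraries held 18176 to 37229 reads and relapse had 2 libraries; detectability was simulated for hosts only, not for single circles. Counts of hosts past the threshold were small and moved. For SG against sham they were 2, and 0 under a minimum count of 10, DESeq2 or only the 2 groups, and 1 with symbol entries only; for relapse against SG 1, and 0 under a minimum count of 10, DESeq2, only the 2 groups or symbol entries only, and 2 with no filter; for relapse against sham 2, and 1 under a minimum count of 10, only the 2 groups or symbol entries only. Leaving out each library gave 0 to 2, 0 to 1 and 0 to 5 hosts (5 without sham 5, 0 without relapse 1). For junctions (0 in each comparison) leaving out each library gave 0 to 2, 0 to 9 and 0 to 8 (9 and 8 without relapse 2), and no filter gave 2 for relapse against SG and 1 for relapse against sham. The cause was not tested. The labels do not say that replicate numbers pair the samples. The correlation of deviations between sham and SG libraries of the same number was -0.081 to 0.015, and 0 of 5 SG libraries correlated best with their own number. Such low correlations of sparse counts show no pairing but cannot exclude it. With the replicate block, hosts past the threshold were 2, 1 and 3 and junctions 1, 2 and 1.

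Among the 5 hosts, the log2 fold change of SG against sham changed sign for Crot (-0.22 without SG 4). The other hosts kept their sign in every setting that tested them: Ppara (-1.08 to -0.77), Ehhadh (-1.55 to -0.88), Hadhb (-0.81 to -0.33) and Acaa2 (0.05 to 0.95). For relapse against SG, leaving out each library gave 0.63 to 1.69 for Ehhadh and -0.61 to -0.12 for Hadhb, and Ppara was 0.11 with the replicate block. Ehhadh for relapse against sham ran from -0.51 to 0.54, with the other sign in 4 of 19 settings. Acaa2 had -5.24 against SG and -4.87 against sham without relapse 2, when the relapse group held no Acaa2 read. Hadhb, with few symbol reads, was not tested with symbol entries only.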
